A study of Homo sapiens with 8 samples.

Results

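Embryoid bodies were compared with undifferentiated human embryonic stem cells, both without ethanol, on 4 of the 8 expression arrays of the series. Membership followed the labels: the 2 arrays of undifferentiated cells at 0 mM ethanol and the 2 arrays of embryoid bodies at 0 mM, which share the named cell line, the absence of ethanol and the array type. H9 is an established human embryonic stem cell line, and the labels give it for all 8 arrays, with no transgene or other modification. They name mTeSR, a defined medium that keeps such cells undifferentiated, as the culture medium for both stages. Embryoid bodies form when pluripotent cells are cultured as clumps in suspension and begin to differentiate. Their age and the way they were made are not given in the sources used here. The other 4 arrays hold both stages after 24 h with 20 mM ethanol and entered the fit to share its estimate of spread. The duplicates of a group are not said to come from separate cultures, so p-values measure the spread between these samples, which may be technical.

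By transcripts that tell cell lines apart, 2 of the 4 arrays compared did not match H9 (4 of 8 in the series), and these were all the arrays of 1 of the 2 stages. Stage and cell line therefore cannot be told apart in any value given here. Duplicate arrays correlated over the tested genes at 0.984 (undifferentiated) and 0.988 (embryoid bodies), and arrays of different stages at 0.888 to 0.894. The arrays were scaled to a trimmed mean of 500 to 500.1. Median signals were 69.2 and 70.8 before differentiation and 85.1 on both embryoid body arrays. The signal of the 3′ end over the 5′ end, a measure of RNA integrity, was 1.45 and 1.51 against 1.51 and 1.58 for ACTB, and 0.851 and 0.891 against 0.912 and 0.977 for GAPDH.

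As background, undifferentiated cells hold a network of transcription factors, with OCT4, SOX2 and NANOG at its centre, that FGF and activin or nodal signals maintain. When aggregated without those signals, the cells leave this state and form derivatives of endoderm, mesoderm and ectoderm side by side. BMP, WNT, hedgehog, Notch and retinoic acid signals between neighbouring cells pattern them. An embryoid body is thus a mixture of cell types. In RNA from such a mixture, a larger share of cells of a type and more RNA of a gene per cell cannot be told apart. Whether the embryoid bodies compared here were cultured without FGF and activin or nodal signals is not given. The labels name mTeSR for both stages.

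Of 19775 genes with a probe set that names no other gene, 14072 were bright enough to test. Values are scaled array signals in arbitrary units, differences are on the log2 scale with the standard error (SE) of the limma fit, and n was 2 arrays in each group throughout. A gene was called at a Benjamini-Hochberg adjusted p under 0.05. By that rule 3946 genes, 28.0% of those tested, were higher in embryoid bodies and 3478, or 24.7%, were lower, together 52.8%. Counts of called list members below stand against these shares. Centring every array on its own median lowered all changes by 0.28 and turned this split into 2506 higher and 5814 lower. That centring placed SOX2, DNMT3A, DNMT3B and CDH1, none of them called on the deposited scale, at -0.28 to -0.25 and called them lower. Small changes therefore depend on the scaling, and every change below is given on the deposited scale. List medians between 0 and 0.28, those of cardiac and smooth muscle, epithelial, germ cell, IGF and folding stress genes, turn negative under that centring. Large differences were mostly rises. At least 4-fold differences numbered 634 among the higher genes and 74 among the lower ones, and differences of at least 16-fold numbered 170 and 1. With dim signals raised to the array median, they numbered 410 and 34, and 60 and 0. A gene whose group mean lay under the array median is called dim there, and its fold is given as a lower bound against that median. A gene that is dim in undifferentiated cells can pass the filter on brightness through embryoid bodies alone, so counts over the tested members of a list are a description and are tilted towards rises where many members are dim before differentiation. Such members, bright in embryoid bodies, numbered 9 of 15 for mesoderm factors, 8 of 17 for plasma proteins, 4 of 11 for absorptive epithelium, 3 of 11 for endoderm factors, 6 of 24 for the BMP pathway and 4 of 15 for retinoic acid genes. They numbered 3 of 12 for the hedgehog pathway, 4 of 15 for neural crest, 4 of 16 for neurons and 4 of 18 for neuroectoderm. Fewer were found for the WNT pathway (3 of 24), trophoblast (2 of 7), primitive streak (2 of 9) and alcohol breakdown (2 of 9). The same holds for HOX genes (2 of 10), the cadherin switch (2 of 14), nodal signalling (2 of 15) and matrix genes (2 of 24). The remaining lists held 1 or none. Among the genes called higher, 622 were dim in undifferentiated cells, and among those called lower, 277 were dim in embryoid bodies.

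**Figure D1:**
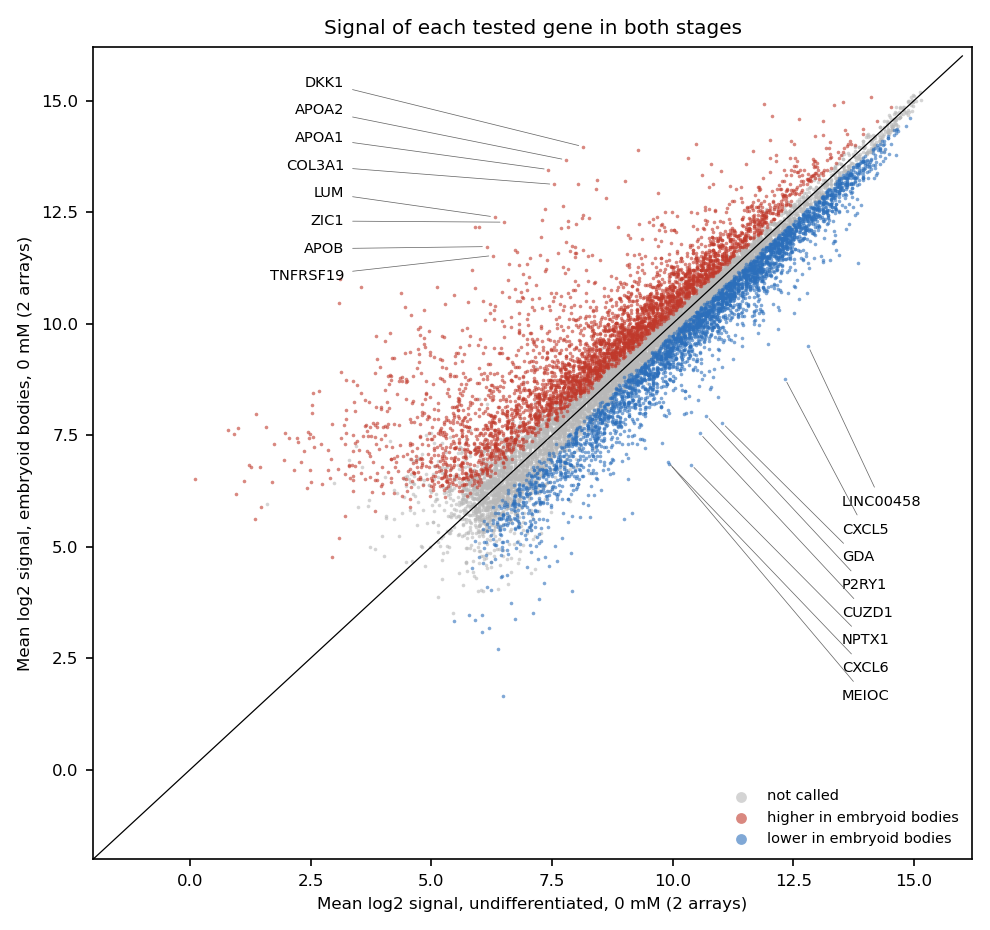
Mean log2 signal of each tested gene in undifferentiated cells (horizontal axis) and embryoid bodies (vertical axis), each over 2 arrays at 0 mM, with the line of equality. Red points are the genes called higher in embryoid bodies and blue points those called lower, 8 named of each: the red points reach much farther from the line than the blue ones, as in the 634 and 74 differences of at least 4-fold.

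The genes with the largest rises among those measured in both stages made plasma and matrix proteins, WNT and FGF regulators and a neural transcription factor. LUM encodes lumican, a small proteoglycan that binds collagen fibrils, and had signals of 89.1 and 70.8 on the undifferentiated arrays and 6026 and 4786 on the embryoid body arrays. APOA1, the main protein of high-density lipoprotein, had signals of 148 and 199.5 on the undifferentiated arrays and 11482 and 10965 on the embryoid body arrays. Both genes lay far apart between the stages on all 4 arrays, by 67.6-fold for LUM (log2 change 6.08 ± 0.16, adjusted p = 1.82e-05) and 65.3-fold for APOA1 (6.03 ± 0.21, adjusted p = 3.22e-05). The value of APOA1 comes from a probe set of the kinds marked as able to read related transcripts (_x_at or _s_at). Its brightest probe set outside those kinds gave a log2 change of 2.47 and was not called (limma adjusted p = 0.0826). The partner APOA2 rose from a mean of 221 to 13032, or 58.9-fold. DKK1, a secreted inhibitor of WNT signalling, had signals of 331 and 239.9 on the undifferentiated arrays and 16596 and 15488 on the embryoid body arrays, a 56.9-fold rise. ZIC1, a zinc finger factor of the neural plate and crest, had signals of 112 and 74.1 on the undifferentiated arrays and 5129 and 4786 on the embryoid body arrays, a rise of 54.3-fold. COL3A1, a fibrillar collagen of mesenchyme, rose 47.9-fold and APOB, the core protein of lipoproteins secreted by yolk sac and liver, 47.9-fold. TNFRSF19, a receptor of the tumour necrosis factor family, rose 38-fold, FLRT3, a membrane protein that acts in FGF signalling and cell adhesion, 34.3-fold, and HAS2, which makes hyaluronan, 30.2-fold. AFP and TTR complete the 12 and are described with the plasma proteins. For each of the 12, both embryoid body arrays exceeded both undifferentiated arrays, as the choice of these genes required.

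Another set of genes was dim in undifferentiated cells and bright in embryoid bodies. GASK1B, a membrane protein of the secretory pathway, had signals of 64.6 and 56.2 on the undifferentiated arrays and 4571 and 4571 on the embryoid body arrays, at least 65.3-fold higher. NR2F1, a nuclear receptor of the developing nervous system, had signals of 67.6 and 60.3 on the undifferentiated arrays and 4365 and 4786 on the embryoid body arrays, likewise at least 65.3-fold. TFAP2A, a transcription factor of neural crest and surface ectoderm, was at least 33.9-fold higher. Signals under the array median were taken as unmeasured, so the bounds carry no order of the true changes. LINC00261, a long noncoding RNA beside FOXA2, was at least 29.2-fold higher, and the imprinted gene NNAT at least 25.7-fold. PRSS2, a trypsinogen with near-identical copies that its probes could also read, was at least 26-fold higher, and DEFA6, an intestinal defensin, at least 20.2-fold. LGR5, a receptor for R-spondins and a stem cell marker of intestine, was at least 22.9-fold higher, and ALDH1A1, an aldehyde dehydrogenase that makes retinoic acid, at least 20.4-fold. CRYZ, a quinone reductase, was at least 20.0-fold higher. TBX3 and FGB belong to the same 12 and appear with the mesoderm and the plasma proteins.

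The largest falls were smaller than the largest rises and included chemokines. CXCL5, a chemokine that attracts neutrophils, had signals of 5129 and 5129 on the undifferentiated arrays and 437 and 437 on the embryoid body arrays, a 11.7-fold fall (log2 change -3.55 ± 0.17, adjusted p = 7.32e-05). CXCL6, a close relative, fell 8.41-fold and the chemokine CCL26 5.89-fold. The values of CXCL5, STC1 and MT1X come from _x_at probe sets, which can also read related transcripts. NPTX1, a secreted pentraxin, had signals of 1413 and 1259 on the undifferentiated arrays and 105 and 126 on the embryoid body arrays, and fell 11.6-fold. The long noncoding RNA LINC00458, known from human pluripotent cells, had signals of 7413 and 6918 on the undifferentiated arrays and 741 and 708 on the embryoid body arrays, and fell 9.89-fold. GDA, guanine deaminase, fell 9.55-fold, MEIOC, a meiosis factor, 7.94-fold and P2RY1, a receptor for ADP, 6.76-fold. CUZD1 fell 8.13-fold, STC1, a secreted glycoprotein, 6.03-fold, and MGARP, a mitochondrial protein, 5.5-fold. MT1X, the remaining gene of these 12, is described with the metallothioneins. Dim in embryoid bodies and bright before were PLA2G4C, a phospholipase (at least 6.68-fold lower), HMX2, a homeobox factor (at least 6.03-fold), and NRK, a kinase (at least 4.32-fold). The immunoproteasome subunit PSMB9 was at least 3.72-fold lower and the kallikrein protease KLK10 at least 3.67-fold. The other members of this group of 12, LRRC2, C1orf94, EP300-AS1, MYMX, GRIA4, OLMALINC and TCL1A, had bounds between 3.59-fold and 2.85-fold. GRIA4 was read from an _x_at probe set, and without the _x_at and _s_at kinds it gave -0.60 and was not called.

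**Figure D2:**
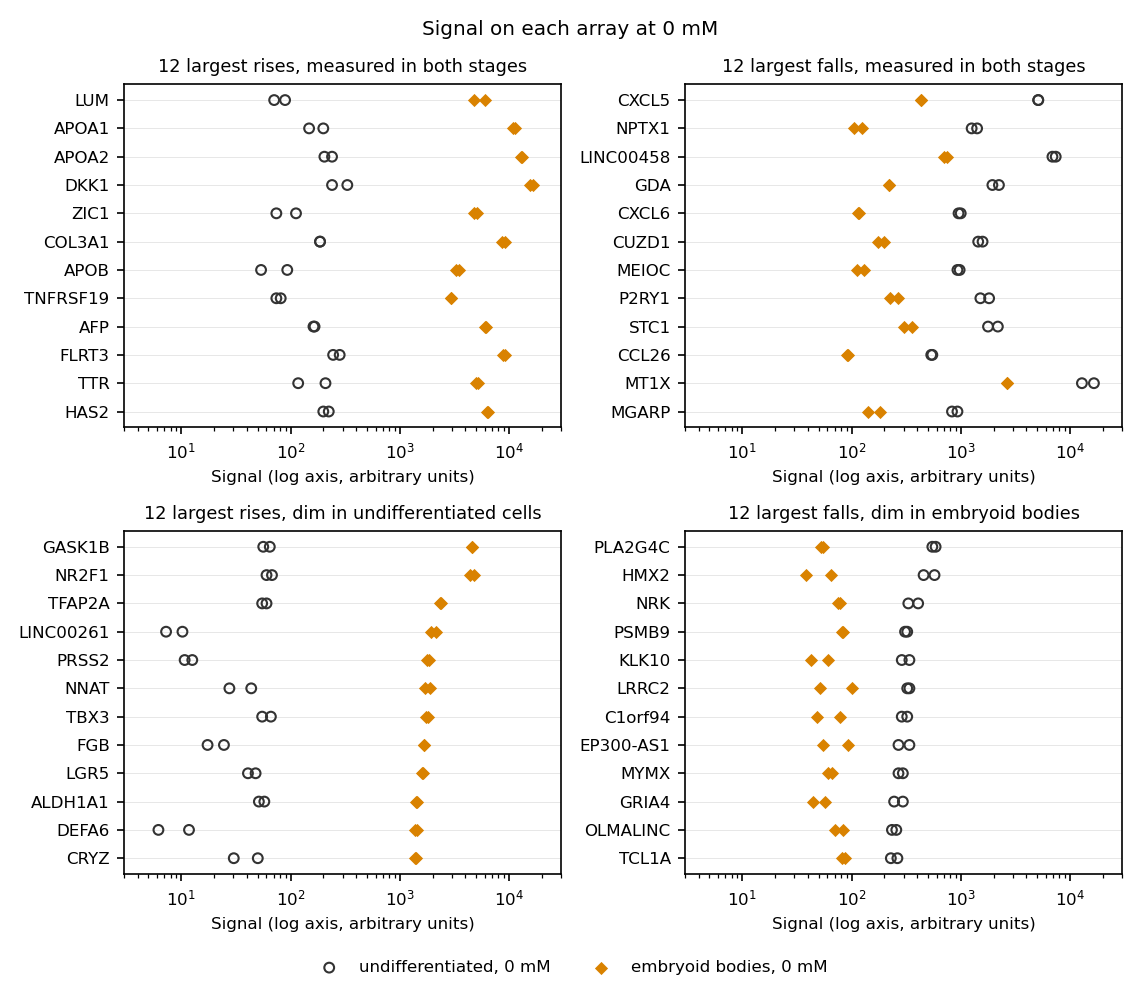
Signal of each named gene on each of the 4 arrays at 0 mM (log axis, arbitrary units), open circles for undifferentiated cells and filled diamonds for embryoid bodies, with 12 genes in each panel. In every row both diamonds lie on one side of both circles, and the duplicates lie close together where signals are above about the array medians of 69.2 to 85.1.

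Genes of the pluripotent state fell in part. Of 25 such genes listed, 22 could be tested, each through a probe set naming no other gene. Of these, 15 were lower and none higher, against 24.7% and 28.0% of all genes, with a median log2 change of -0.55 where all genes had 0.017. NANOG, a homeobox factor at the centre of the network, had signals of 8318 and 7943 on the undifferentiated arrays and 4677 and 4571 on the embryoid body arrays. It was 1.76-fold lower (log2 change -0.81 ± 0.068, adjusted p = 0.000408), yet remained far above the array median of 85.1. SOX2, its partner and also a neural factor, had signals of 18197 and 16596 on the undifferentiated arrays and 17783 and 16982 on the embryoid body arrays, which overlapped between the stages (log2 change 0.00 ± 0.091, not called); over all its probe sets it was lower (-0.35, limma adjusted p = 0.0299). PRDM14 and SALL4, regulators of the same network, had log2 differences of -0.13 ± 0.11 and -0.12 ± 0.13 and were not called. The larger falls were in ETV4, a factor downstream of FGF signals, with signals of 389 and 447 on the undifferentiated arrays and 135 and 102 on the embryoid body arrays (3.55-fold), and USP44, a deubiquitinase, 2.45-fold. ZFP42, the marker REX1, had signals of 9772 and 10965 on the undifferentiated arrays and 4266 and 4365 on the embryoid body arrays, a 2.4-fold fall. TERT, the catalytic subunit of telomerase, fell 2.34-fold and DPPA2 2.07-fold. LIN28A, an RNA-binding protein that blocks let-7 maturation, fell only from a mean of 24547 to 19275. DNMT3B, the de novo DNA methyltransferase most typical of these cells, was at 21878 and 20893 on the undifferentiated arrays and 22387 and 21379.6 on the embryoid body arrays and was not called, and OTX2, also a forebrain factor, had signals of 3981 and 3715 on the undifferentiated arrays and 5888 and 5754 on the embryoid body arrays and was not called either (log2 change 0.60 ± 0.27, adjusted p = 0.114). POU5F1, which encodes OCT4, has no probe set that names it alone. Undifferentiated cells thus carried high signals for these markers, as their label has it, and embryoid bodies carried most of them at more moderate falls.

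The promoter of NANOG is shown because it holds, among those of 16 tested pluripotency genes with a RefSeq promoter sequence, the single match to the composite site of OCT4 and SOX2, written here as GCATNACAA and searched on both strands. The motif occurs in 0.527% of 27305 promoters of the same length (250 bases before the start). The sequence is from RefSeq (GRCh38.p14, chr12:7789152-7789401, plus strand), 5′ to 3′, with the match in capitals.
NANOG: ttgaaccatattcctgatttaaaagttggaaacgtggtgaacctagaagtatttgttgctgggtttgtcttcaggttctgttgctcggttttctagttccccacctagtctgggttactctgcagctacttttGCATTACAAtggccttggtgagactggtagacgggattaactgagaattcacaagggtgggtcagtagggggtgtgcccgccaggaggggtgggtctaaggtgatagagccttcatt

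Nodal and activin signalling genes moved both ways. Of 15 tested, 9 were higher and 2 lower, with a median of 0.60. NODAL, the ligand itself, had signals of 389 and 501 on the undifferentiated arrays and 912 and 912 on the embryoid body arrays, a 2.07-fold rise (adjusted p = 0.00297). LEFTY1, a secreted nodal inhibitor and direct target, had signals of 933 and 1122 on the undifferentiated arrays and 355 and 380.2 on the embryoid body arrays, a 2.79-fold fall; a probe set shared with LEFTY2 did not follow it, at 501 on both undifferentiated arrays and 562 and 575 on the others. FOXH1, the partner of SMAD2 in this response, fell 1.46-fold. SMAD3 rose 2.02-fold, whereas SMAD2 and SMAD4 were not called (-0.10 ± 0.07 and -0.05 ± 0.076). Other antagonists rose, unlike LEFTY1: FST, follistatin, from a mean of 1274 to 13489.6, CER1, cerberus, 1.86-fold, and SMAD7, an intracellular inhibitor, 2.02-fold. The activin subunit gene INHBA was at least 2.88-fold higher.

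FGF pathway genes also moved both ways, 10 higher and 8 lower of 21 tested, with mixed directions among the ligands and among the readout genes. Among ligands, FGF2, the factor that sustains these cells in culture, had signals of 2291 and 2455 on the undifferentiated arrays and 977 and 646 on the embryoid body arrays, a 2.99-fold fall. FGF8, a ligand of streak, forebrain and midbrain, had signals of 3.47 and 5.01 on the undifferentiated arrays and 178 and 169.8 on the embryoid body arrays, at least 2.48-fold higher. FGF4 rose 3.85-fold and FGF9 3.27-fold, while FGF13, an intracellular member of the family, fell 2.29-fold. Among receptors, FGFR3 rose 3.67-fold and FGFR1 1.51-fold. Readout genes of ERK signalling were mostly lower, with falls of 1.78-fold for ETV5, 2.0-fold for DUSP6 and 2.54-fold for SPRY4, next to that of ETV4. DUSP4, another phosphatase of this kind, rose 3.85-fold instead.

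The primitive streak is the transient source of mesoderm and endoderm. Of 15 of its markers with a probe set of their own, 8 were dim in both stages, among them MIXL1, GSC and MESP1. Of 9 tested, 5 were higher, FGF8 and FGF4 included, and 1 was lower (CDX4). The median was 0.76, or 0.33 with dim signals at the array median. TBXT, brachyury, had signals of 145 and 229 on the undifferentiated arrays and 209 and 251 on the embryoid body arrays and was not called. EOMES, a T-box factor of streak and definitive endoderm, had signals of 257 and 245 on the undifferentiated arrays and 1148 and 1023 on the embryoid body arrays, a 4.32-fold rise.

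Of 19 mesoderm factors with a probe set, 15 were tested, and 14 of these were called higher, with a median log2 change of 3.85, or 3.11 with dim signals at the array median. Of the 15, 9 were dim in undifferentiated cells and bright in embryoid bodies, so this count is tilted towards rises. HAND1, a factor of extraembryonic and lateral mesoderm, had signals of 55 and 69.2 on the undifferentiated arrays and 427 and 389 on the embryoid body arrays, at least 5.82-fold higher. PDGFRA, a receptor of paraxial and other mesenchyme, had signals of 105 and 135 on the undifferentiated arrays and 2138 and 2291 on the embryoid body arrays, a 18.6-fold rise (log2 change 4.22 ± 0.14, adjusted p = 2.79e-05). TWIST1, a mesenchymal factor, was at least 13.3-fold higher and TBX3, a T-box factor, at least 25.4-fold. PRRX1, a marker of limb and head mesenchyme, had signals of 60.3 and 9.55 on the undifferentiated arrays and 1202 and 1148 on the embryoid body arrays, at least 16.8-fold higher. MSX1 and MSX2, homeobox targets of BMP signals, rose 22.6-fold and 19.1-fold, and MEIS2, a HOX cofactor, 14.5-fold. KDR, the VEGF receptor of endothelial progenitors, was the exception at 2138 and 2455 on the undifferentiated arrays and 1380.4 and 1514 on the embryoid body arrays, a 1.58-fold fall.

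Later products of mesoderm were fewer. Among cardiac and smooth muscle genes 5 were higher and 3 lower of 15 tested, and 9 of 21 with a probe set were dim in both stages, including MYH6, TNNI1 and NPPA. MYL7, an atrial myosin light chain, had signals of 20.4 and 24.5 on the undifferentiated arrays and 316 and 316 on the embryoid body arrays, at least 4.52-fold higher, and TNNC1, cardiac troponin C, rose 5.25-fold. ACTC1, cardiac actin, and TAGLN had log2 differences of -0.07 ± 0.068 and -0.15 ± 0.11 and were not called. The smooth muscle genes CNN1 and MYL9 fell 2.24-fold and 1.64-fold, and ACTA2 rose 2.51-fold. Endothelial and blood genes gave 4 higher and 4 lower of 12 tested, and 11 of 20 with a probe set were dim in both stages, CDH5, TIE1, TAL1 and CLDN5 among them. The higher ones included VWF (2.92-fold) and LMO2 (2.07-fold); FLT1, a VEGF receptor, fell 2.4-fold. PECAM1 was not called on its brightest probe set (-0.18 ± 0.15), but its most variable probe set rose, with a log2 change of 2.04. In both lists the shares called lay near those of all genes.

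Endoderm factors and the plasma proteins of yolk sac and fetal liver gave large rises. Of 11 endoderm factors tested, 9 were higher and 1 lower (FOXA3), with a median of 2.94. SOX17, a determinant of endoderm, had signals of 105 and 74.1 on the undifferentiated arrays and 1072 and 1047 on the embryoid body arrays, a 12-fold rise. FOXA2, a pioneer factor of endoderm and midline, had signals of 66.1 and 93.3 on the undifferentiated arrays and 1072 and 1122 on the embryoid body arrays (14-fold), and GATA6, a factor of primitive endoderm and heart, had signals of 79.4 and 117 on the undifferentiated arrays and 1995 and 2042 on the embryoid body arrays (20.9-fold). CXCR4, a chemokine receptor used to sort definitive endoderm, rose 17.2-fold. FOXA1 was at least 1.82-fold higher. PDX1, PROX1, ONECUT1 and CDX2, later factors of pancreas, liver and gut, were dim in both stages.

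Of 17 plasma protein genes tested, 16 were higher and 1 was not called, with a median log2 change of 4.70, or 3.57 with dim signals at the array median. AFP, alpha-fetoprotein, had signals of 162 and 166 on the undifferentiated arrays and 6026 and 6166 on the embryoid body arrays, a 37.2-fold rise (log2 change 5.22 ± 0.22, adjusted p = 5.38e-05). TTR, which carries thyroid hormone and the retinol complex, had signals of 117 and 209 on the undifferentiated arrays and 5012 and 5248 on the embryoid body arrays, a 32.7-fold rise. Both are long-used markers of yolk sac and early hepatic cells, and neither overlapped between the stages. The fibrinogen genes FGA, FGB and FGG were at least 11.9-fold, 23.7-fold and 13-fold higher. SERPINA1, alpha-1-antitrypsin, was at least 5.96-fold higher, TF, transferrin, at least 3.85-fold, and RBP4, retinol-binding protein, at least 12-fold. APOE, which many tissues make, rose 1.46-fold only. ALB, albumin, was dim in both stages. Absorptive and endocytic epithelium showed the same direction, with 9 of 11 tested genes higher: FABP1, a fatty acid carrier of liver and gut, by at least 2.88-fold, MTTP, which loads lipid onto APOB, by at least 7.33-fold, and the endocytic receptors CUBN (at least 1.58-fold) and LRP2 (5.89-fold). VIL1, villin of the brush border, had signals of 126 and 145 on the undifferentiated arrays and 603 and 549.5 on the embryoid body arrays, a 4.27-fold rise.

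The promoter of AHSG, fetuin A, is shown because, of 14 tested plasma protein genes with a promoter sequence, it alone held the HNF4 motif searched, CAAAGTCCA on either strand, which 0.293% of all promoters hold. AHSG had signals of 50.1 and 50.1 on the undifferentiated arrays and 219 and 234 on the embryoid body arrays, at least 3.24-fold higher. The sequence is RefSeq GRCh38.p14, chr3:186612810-186613059, plus strand, 5′ to 3′, the match in capitals.
AHSG: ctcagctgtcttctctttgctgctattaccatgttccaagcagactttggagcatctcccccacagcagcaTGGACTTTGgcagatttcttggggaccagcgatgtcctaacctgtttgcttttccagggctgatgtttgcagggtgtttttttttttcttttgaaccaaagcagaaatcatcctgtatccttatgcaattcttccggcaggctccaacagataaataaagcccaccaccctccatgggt

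Neural genes rose as well. Of 18 neuroectoderm genes tested, 15 were higher and 3 lower, with a median of 2.67. PAX6, a master factor of eye and forebrain, had signals of 151 and 138 on the undifferentiated arrays and 1738 and 1995 on the embryoid body arrays, a 12.9-fold rise (log2 change 3.69 ± 0.15, adjusted p = 4.63e-05). SOX1, the earliest marker of the neural plate, had signals of 120.2 and 107 on the undifferentiated arrays and 977 and 891 on the embryoid body arrays, a 8.22-fold rise. LHX2 (6.53-fold), EMX2 (9.33-fold), SIX3 (4.37-fold) and FEZF2 (6.24-fold), all forebrain regulators, rose too. POU3F2, a neural POU factor, was at least 10.5-fold higher, and DLX5, of ventral forebrain and placodes, at least 3.13-fold. POU3F1, ZIC2 and SOX3, which pluripotent cells also express, were the 3 that fell, ZIC2 and SOX3 by 1.35-fold and 1.35-fold.

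Neuronal genes rose less, with 11 higher and 1 lower of 16 tested and a median of 1.23. GAD1, which makes the transmitter GABA, had signals of 89.1 and 107 on the undifferentiated arrays and 2630.3 and 2570.4 on the embryoid body arrays, a 26.6-fold rise, and NCAM1, an adhesion molecule, rose 4.95-fold. DCX, a microtubule protein of migrating neurons, had signals of 468 and 447 on the undifferentiated arrays and 1318 and 1549 on the embryoid body arrays, a 3.13-fold rise. STMN4 was at least 6.03-fold higher. TUBB3, SYT1 and NEFL had log2 differences of -0.03 ± 0.081, -0.17 ± 0.10 and -0.02 ± 0.10 and were not called. Of 15 neural crest genes, 11 were higher and 2 lower. PAX3, of dorsal neural tube and crest, had signals of 132 and 120.2 on the undifferentiated arrays and 2630.3 and 2570.4 on the embryoid body arrays, a 20.7-fold rise, and SOX10, a crest and glial factor, had signals of 155 and 126 on the undifferentiated arrays and 447 and 389 on the embryoid body arrays, a 2.99-fold rise that was not called over the mean of its probe sets (log2 change 1.03). TFAP2B was at least 18.2-fold higher. FOXD3, shared by crest and pluripotent cells, fell 1.8-fold. Several genes of this list (ZIC1, MSX1, TWIST1, SNAI2) belong to other lists here too.

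**Figure D3:**
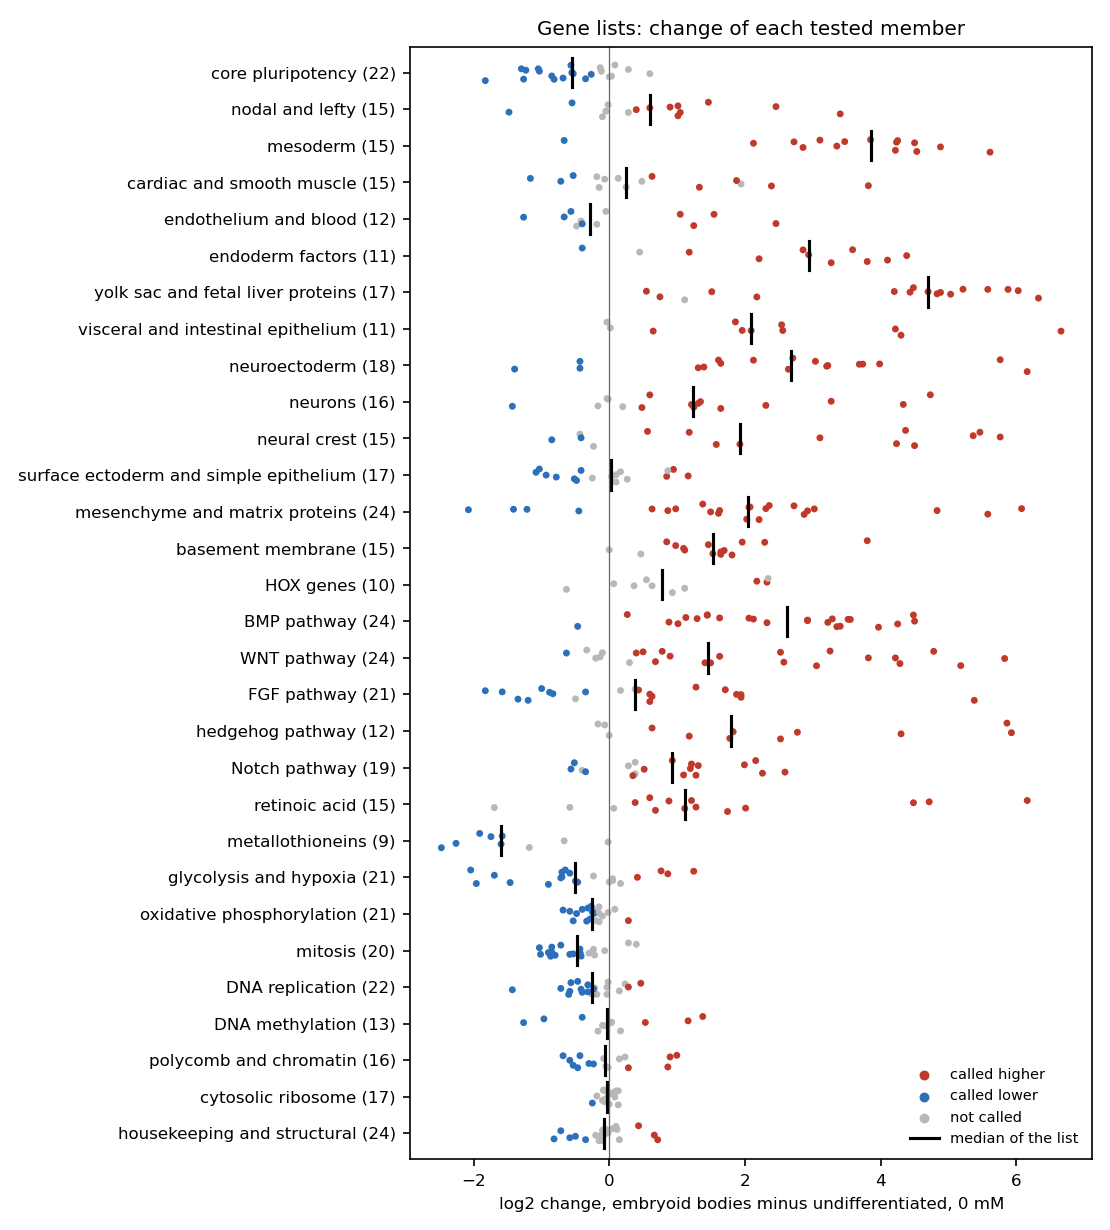
Log2 change (embryoid bodies minus undifferentiated cells, 0 mM, 2 arrays each) of every tested member of 30 gene lists, with the number tested in parentheses, red for genes called higher, blue for those called lower and grey for the rest; black bars are list medians. Medians reach 4.70 for yolk sac and fetal liver proteins and 3.85 for mesoderm, lie near 0 for ribosomal and housekeeping genes and at -1.59 for metallothioneins.

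Matrix genes followed the mesodermal direction. Of 24 genes of mesenchyme and matrix, 20 were higher and 4 lower. COL1A2 rose 4.62-fold, COL1A1 2.6-fold and VIM, vimentin, 3.09-fold. POSTN, periostin, had signals of 95.5 and 126 on the undifferentiated arrays and 3162 and 3090.3 on the embryoid body arrays, a 28.5-fold rise. DCN, decorin, rose 7.59-fold, FBN1, fibrillin, 7.33-fold and FN1, fibronectin, 8.13-fold. The exceptions were THY1, a surface marker of pluripotent cells and fibroblasts (6457 and 6166 on the undifferentiated arrays and 1479 and 1514 on the embryoid body arrays, 4.22-fold lower), PCOLCE (1.36-fold) and the YAP target genes CCN1 (2.66-fold) and CCN2 (2.32-fold). In basement membrane, 13 of 15 tested genes were higher and none lower. COL4A1 and COL4A2, paired chains of collagen IV, rose 3.24-fold and 2.75-fold, COL4A6 rose 4.9-fold, and LAMA4 was at least 5.96-fold higher. LAMA1, a chain of the early embryonic laminin, had signals of 1318 and 1622 on the undifferentiated arrays and 5754 and 5623 on the embryoid body arrays, a 3.89-fold rise. NID1 was not called.

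Epithelial genes did not show this pattern, with 3 higher and 7 lower of 17 tested. CDH1, E-cadherin, had signals of 10233 and 10233 on the undifferentiated arrays and 10715 and 10233 on the embryoid body arrays, which overlapped, and EPCAM had a log2 difference of 0.27 ± 0.10, not called. CDH2, N-cadherin, had signals of 3020.0 and 2818 on the undifferentiated arrays and 12303 and 12303 on the embryoid body arrays, a 4.22-fold rise. KRT8, a keratin of simple epithelium, and DSP, desmoplakin of cell junctions, rose 1.8-fold and 2.24-fold. ESRP1, an epithelial splicing factor, fell 1.91-fold and the trafficking GTPase RAB25 2.04-fold. Of the factors that repress E-cadherin, ZEB1 rose 13.2-fold and SNAI2 8.61-fold, and ZEB2 was at least 10.1-fold higher. The falling TWIST2 was at 398 and 355 on the undifferentiated arrays and 89.1 and 123 on the embryoid body arrays. RNA for N-cadherin and these repressors was thus higher in the aggregates without a called change in E-cadherin RNA on the deposited scale.

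Of 24 BMP pathway genes tested, 23 were higher and 1 lower, with a median of 2.62, or 2.09 with dim signals at the array median. Of the 24, 6 were dim in undifferentiated cells and bright in embryoid bodies, so this count is tilted towards rises. Ligands came first: BMP2 had signals of 339 and 389 on the undifferentiated arrays and 2818 and 2692 on the embryoid body arrays, a 7.59-fold rise, BMP5 was at least 10.5-fold higher, and BMP7 rose 2.72-fold, though its most variable probe set gave 0.63 and was not called. BMP4, with 18.2 and 107 on the undifferentiated arrays and 513 and 398 on the embryoid body arrays, passed narrowly (adjusted p = 0.0459) and was not called with only the 4 arrays at 0 mM fitted (0.0673). Secreted antagonists rose with them. GREM1, gremlin, had signals of 214 and 239.9 on the undifferentiated arrays and 5129 and 5012 on the embryoid body arrays, a 22.4-fold rise, NOG, noggin, was at least 14.1-fold higher and CHRD, chordin, at least 1.62-fold; CHRDL1 fell 1.38-fold. Direct targets were higher in the same RNA. ID1 had signals of 4571 and 4467 on the undifferentiated arrays and 14454 and 13489.6 on the embryoid body arrays, a 3.09-fold rise, ID2 rose 2.19-fold, ID3 1.84-fold and ID4 4.37-fold, and the decoy receptor BAMBI 5.01-fold. Ligands, inhibitors and targets thus rose side by side.

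Of 24 WNT pathway genes, 18 were higher and 1 lower (SFRP1), with a median of 1.45. WNT5A, a noncanonical ligand, had signals of 182 and 191 on the undifferentiated arrays and 1445 and 1659.6 on the embryoid body arrays, a 8.32-fold rise, and WNT4 was at least 6.24-fold higher. Among receptors, FZD1 rose 5.96-fold and FZD4 3.09-fold, whereas FZD7, FZD5 and LRP5 were not called. The R-spondin RSPO3 had signals of 355 and 339 on the undifferentiated arrays and 9772 and 9333 on the embryoid body arrays, a 27.5-fold rise, and the secreted antagonist FRZB rose 18.6-fold. Targets of the pathway were higher: LEF1 had signals of 186 and 145 on the undifferentiated arrays and 2239 and 2399 on the embryoid body arrays (14.1-fold), AXIN2 had signals of 977 and 977 on the undifferentiated arrays and 2754 and 2754 on the embryoid body arrays (2.82-fold), and SP5 had signals of 102 and 100 on the undifferentiated arrays and 933 and 1000.0 on the embryoid body arrays (9.55-fold). SP5 is shown because its promoter held 3 matches to the TCF and LEF motif (CTTTGAA or CTTTGAT, both strands), which 6.03% of all promoters hold at least once; DKK1 was the other of 16 tested pathway genes with a match. The sequence is RefSeq GRCh38.p14, chr2:170715087-170715336, plus strand, 5′ to 3′, the matches in capitals.
SP5: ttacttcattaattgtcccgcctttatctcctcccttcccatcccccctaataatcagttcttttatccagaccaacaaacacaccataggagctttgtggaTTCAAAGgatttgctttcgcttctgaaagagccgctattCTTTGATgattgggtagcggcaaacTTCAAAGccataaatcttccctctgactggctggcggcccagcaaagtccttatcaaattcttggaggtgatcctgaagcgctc

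In the hedgehog pathway 9 of 12 tested genes were higher and none lower, with 3 of the higher ones dim in undifferentiated cells and bright in embryoid bodies. IHH, a ligand of visceral endoderm, had signals of 5.75 and 36.3 on the undifferentiated arrays and 832 and 851 on the embryoid body arrays, at least 12-fold higher, and SHH was at least 1.78-fold higher, a call lost with only the 4 arrays at 0 mM fitted (adjusted p = 0.0937), with no filter and under each other scaling. The receptor and target PTCH1 had signals of 933 and 1096 on the undifferentiated arrays and 5888 and 5754 on the embryoid body arrays, a 5.75-fold rise, HHIP, a ligand-binding target, was at least 19.1-fold higher, and the coreceptor BOC rose 19.7-fold. GLI1, the usual transcriptional readout, had a log2 difference of -0.07 ± 0.26 and was not called, nor was GLI2. Of 19 Notch pathway genes, 12 were higher and 3 lower. DLL1, a ligand, had signals of 331 and 324 on the undifferentiated arrays and 1380.4 and 1549 on the embryoid body arrays (4.47-fold, but not called over all its probe sets, with a log2 change of 0.99), JAG1 rose 2.32-fold, and the targets HEY1 and HES4 rose 4.79-fold and 3.98-fold. NOTCH1 was not called, and RBPJ, the DNA-binding partner, fell 1.48-fold on its brightest probe set but not on another (log2 change 0.28, not called).

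Retinoic acid genes gave 12 higher and none lower of 15 tested. Of the enzymes, ALDH1A1 is given above and RDH10 rose 2.16-fold. CRABP2, the intracellular carrier, had signals of 1698 and 1380.4 on the undifferentiated arrays and 3548 and 3548 on the embryoid body arrays, a 2.32-fold rise, the receptor RARB rose 1.84-fold, and CYP26B1, which degrades the ligand, was at least 2.82-fold higher. CYP26A1, an immediate target, had signals of 1514 and 1230.3 on the undifferentiated arrays and 933 and 891 on the embryoid body arrays and was not called. The HOX genes, which retinoic acid and WNT signals open in order along the body axis, were mostly dim. Of 22 HOX genes with a probe set, 18 were dim in both stages and 2 were called, both higher: HOXB2 with signals of 32.4 and 58.9 on the undifferentiated arrays and 209 and 229 on the embryoid body arrays, at least 3.13-fold, and HOXB3 with 51.3 and 36.3 on the undifferentiated arrays and 195 and 195 on the embryoid body arrays, at least 2.79-fold. Both are hindbrain genes of the 3′ end of the HOXB cluster.

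Metallothioneins, small proteins that bind zinc and copper, fell together. Of 9 tested genes in the list, 6 were lower and none higher, with a median log2 change of -1.59. MT1X had signals of 16596 and 12882 on the undifferentiated arrays and 2630.3 and 2630.3 on the embryoid body arrays, a 5.56-fold fall (log2 change -2.47 ± 0.13, adjusted p = 0.000103). MT1F had signals of 6457 and 5248 on the undifferentiated arrays and 1318 and 1122 on the embryoid body arrays (4.79-fold) and MT1H had signals of 12303 and 10233 on the undifferentiated arrays and 3236 and 2754 on the embryoid body arrays (3.76-fold). MT2A had signals of 11749 and 9772 on the undifferentiated arrays and 3311 and 3090.3 on the embryoid body arrays, a 3.35-fold fall. On all 6 called genes, both embryoid body arrays lay below both undifferentiated ones. MT1E fell 3.02-fold and MT1G 2.99-fold, while MT3 and MT1M, dim in embryoid bodies, were not called. The coding sequences of these genes are near-identical, so probe sets can read more than the named member and the 6 values are not independent. SLC30A1, a zinc exporter that the same metal-sensing factor, MTF1, activates, had signals of 3020.0 and 3090.3 on the undifferentiated arrays and 3020.0 and 3020.0 on the embryoid body arrays and was not called (log2 change -0.02 ± 0.12).

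The promoters of MT1X, MT2A and MT1H are shown because they hold repeated metal response elements, the sites of MTF1. The letters searched were TGCACNC or TGCGCNC on either strand. These 3 and SLC30A1 were the 4 tested list members with a promoter sequence, so the other metallothioneins were not searched. Of all promoters 24.7% hold at least 1 such element and 0.366% hold 4 or more. MT1X holds 4, MT2A 7 and MT1H 8; SLC30A1, not called here, also holds at least 1. All 3 lie on chromosome 16, plus strand, in RefSeq GRCh38.p14: MT1X at chr16:56682220-56682469, MT2A at chr16:56608334-56608583 and MT1H at chr16:56669564-56669813. They are written 5′ to 3′ with the elements in capitals.
MT1X: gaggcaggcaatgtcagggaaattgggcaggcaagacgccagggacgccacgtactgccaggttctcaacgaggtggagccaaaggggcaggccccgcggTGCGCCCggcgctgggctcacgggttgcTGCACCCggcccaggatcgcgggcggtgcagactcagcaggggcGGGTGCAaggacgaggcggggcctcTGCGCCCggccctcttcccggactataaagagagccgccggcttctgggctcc
MT2A: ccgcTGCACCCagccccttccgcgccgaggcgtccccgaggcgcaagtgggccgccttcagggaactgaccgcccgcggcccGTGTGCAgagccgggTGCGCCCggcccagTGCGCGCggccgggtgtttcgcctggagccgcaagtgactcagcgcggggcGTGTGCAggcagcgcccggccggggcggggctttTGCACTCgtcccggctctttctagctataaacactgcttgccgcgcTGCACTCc
MT1H: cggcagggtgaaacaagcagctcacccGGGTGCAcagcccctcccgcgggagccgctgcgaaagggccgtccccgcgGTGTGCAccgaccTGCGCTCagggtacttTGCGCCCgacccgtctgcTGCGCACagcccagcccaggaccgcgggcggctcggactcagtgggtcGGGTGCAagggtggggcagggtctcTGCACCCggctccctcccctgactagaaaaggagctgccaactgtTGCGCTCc

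Glycolytic and hypoxia-regulated genes were mostly lower, 12 of 21 tested, with 4 higher and a median of -0.50. HK2, the first enzyme of glycolysis, had signals of 5623 and 5129 on the undifferentiated arrays and 1585 and 1738 on the embryoid body arrays, a 3.24-fold fall. ALDOC had signals of 2630.3 and 2239 on the undifferentiated arrays and 549.5 and 631 on the embryoid body arrays (4.12-fold), PFKP fell 1.86-fold and LDHA, which makes lactate, 1.62-fold. ANKRD37 and BNIP3, targets of the hypoxia-inducible factors, had signals of 676 and 549.5 on the undifferentiated arrays and 178 and 138 on the embryoid body arrays and of 9333 and 6457 on the undifferentiated arrays and 2818 and 2818 on the embryoid body arrays. They fell 3.89-fold and 2.75-fold. VEGFA, also a hypoxia target, went the other way with 1230.3 and 1047 on the undifferentiated arrays and 2692 and 2692 on the embryoid body arrays, a 2.37-fold rise, as did the glucose transporters SLC2A1 (1.7-fold) and SLC2A3 (1.33-fold) and NDRG1 (1.82-fold). GAPDH, ADM and EGLN3 were not called. Hypoxia targets thus moved in both directions.

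The promoters of ANKRD37 and BNIP3, the hypoxia targets described above, are shown for the hypoxia response element ACGTGC, searched on either strand. ANKRD37 holds 2 separate copies, and the 2 overlapping matches of BNIP3 are 1 palindrome read on both strands. In all, 6 of 18 tested members with a promoter sequence held it, against 5.85% of all promoters. The list was written to include hypoxia genes, so this share is no test, and a link to the falls was not tested. The others were HK2, ALDOC, PGK1 and LDHA, all lower, in a list where 12 of 21 tested genes were lower. ALDOC fell by more than ANKRD37 and HK2 by more than BNIP3. VEGFA held no match in this window. RefSeq GRCh38.p14 places the promoters of ANKRD37 and BNIP3 at chr4:185396591-185396840, plus strand, and chr10:131981924-131982173, minus strand. They are written 5′ to 3′ on the gene's strand, matches in capitals.
ANKRD37: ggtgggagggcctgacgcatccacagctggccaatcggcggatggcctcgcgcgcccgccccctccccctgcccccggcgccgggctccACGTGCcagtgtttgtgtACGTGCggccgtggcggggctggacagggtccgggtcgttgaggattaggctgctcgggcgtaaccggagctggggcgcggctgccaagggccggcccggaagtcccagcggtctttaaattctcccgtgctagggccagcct
BNIP3: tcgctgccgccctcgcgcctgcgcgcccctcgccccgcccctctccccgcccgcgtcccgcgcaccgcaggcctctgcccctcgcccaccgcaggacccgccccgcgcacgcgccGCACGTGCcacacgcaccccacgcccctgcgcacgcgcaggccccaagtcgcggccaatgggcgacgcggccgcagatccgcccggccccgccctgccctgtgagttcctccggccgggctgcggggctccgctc

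**Figure D4:**
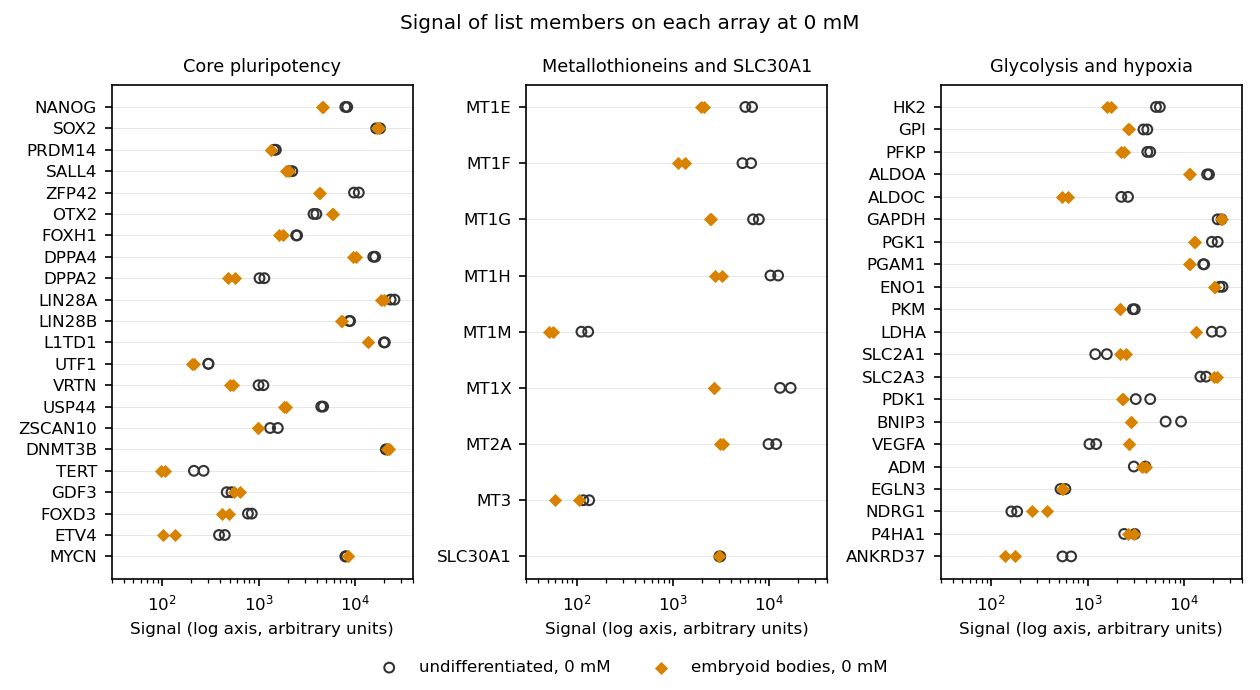
Signal of every tested member of 3 lists on each of the 4 arrays at 0 mM (log axis, arbitrary units), open circles for undifferentiated cells and filled diamonds for embryoid bodies. The 6 called metallothioneins lie apart by 2.99-fold to 5.56-fold, while most pluripotency genes keep signals above the array medians of 69.2 to 85.1 in both stages.

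Respiratory chain genes were lower by small amounts, 12 of 21 tested and 1 higher, with a median of -0.25; COX5A and COX8A, subunits of cytochrome c oxidase, fell 1.4-fold and 1.45-fold. Ribosomal protein genes barely moved, with 1 of 17 called (RPS9, lower) and a median of -0.03. Genes of cell division were lower. Of 20 mitosis genes, 14 were lower and none higher (median -0.48): AURKA, a spindle kinase, had signals of 6761 and 6026 on the undifferentiated arrays and 3162 and 3162 on the embryoid body arrays, a 2.02-fold fall, BIRC5, survivin, fell 2.04-fold and PLK1 1.86-fold. Of 22 replication genes, 12 were lower and 2 higher, led by CDT1, the licensing factor (2291 and 1995 on the undifferentiated arrays and 646 and 977 on the embryoid body arrays, 2.69-fold lower), and ORC1 (1.64-fold). MCM2 and PCNA were not called. Apart from AURKA, BIRC5 and CDT1, each fall in both lists was under 2-fold. Among cell cycle inhibitors and p53 targets 7 were higher and 5 lower of 17: CDKN1C, an imprinted inhibitor, rose 2.02-fold and GDF15 2.48-fold, while PMAIP1 fell 2.92-fold, RRM2B 3.51-fold and CDKN1B 1.41-fold.

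Of 13 tested genes of the DNA methylation machinery, 3 were higher and 3 lower, near the shares of all genes. DNMT1 and DNMT3A were not called (-0.10 ± 0.12 and 0.03 ± 0.066). TET2, which oxidises methylcytosine, had signals of 129 and 145 on the undifferentiated arrays and 316 and 398 on the embryoid body arrays, a 2.6-fold rise, TET1 fell 1.32-fold on its brightest probe set but not over all its probe sets (0.11, not called), and HELLS, a remodeller needed for methylation, fell 1.95-fold (over all its probe sets -0.28, not called). GADD45A, a stress gene with a part in demethylation, rose 2.24-fold. Of 16 polycomb and chromatin genes, 4 were higher and 7 lower. EZH1 and EZH2, the alternative methyltransferases of the complex, rose 2.0-fold and 1.82-fold, and their partners JARID2 and MTF2 fell 1.6-fold and 1.45-fold; SUZ12 was not called. JARID2 was not called on its most variable probe set (log2 change -0.10) or with only the 4 arrays at 0 mM fitted, and EZH1 was not called over all its probe sets (0.50).

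Of 13 imprinted growth genes tested, 7 were higher and 2 lower. PLAGL1, a zinc finger factor, had signals of 178 and 158 on the undifferentiated arrays and 2884 and 2630.3 on the embryoid body arrays, a 16.4-fold rise, DLK1 rose 6.03-fold and MEST 2.14-fold, and PHLDA2 and GRB10, growth restrainers, fell 1.8-fold and 1.27-fold. Over all probe sets neither was called, at -0.26 for PHLDA2 and -0.29 for GRB10. In the IGF list, 5 of 13 were higher and 2 lower. IGFBP5 had signals of 302 and 257 on the undifferentiated arrays and 5248 and 5370.3 on the embryoid body arrays, a 19.1-fold rise, and IGFBP7 had signals of 141 and 166 on the undifferentiated arrays and 2951 and 3020.0 on the embryoid body arrays, a 19.5-fold rise. IGFBP2 was not called.

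Genes that break down alcohol bear on the ethanol question of the series. Of 9 tested, 3 were higher and 3 lower, near the shares of all genes (28.0% and 24.7%). ADH1A, ADH1B, ADH1C and CYP2E1, the classic ethanol oxidising enzymes of liver, were dim in both stages. CAT, catalase, which can also oxidise ethanol, had signals of 93.3 and 44.7 on the undifferentiated arrays and 871 and 741 on the embryoid body arrays, at least 9.89-fold higher. ALDH2, the mitochondrial enzyme that clears acetaldehyde, had signals of 1949.8 and 2042 on the undifferentiated arrays and 2630.3 and 2630.3 on the embryoid body arrays, a 1.32-fold rise, and ALDH1B1 fell 2.07-fold. ADH5, present in most cells, had a log2 difference of -0.05 ± 0.083 and was not called. In the folding stress list, 6 rose and 7 fell of 15, against 28.0% and 24.7% of all genes. HSPA5, a chaperone of the endoplasmic reticulum, rose 1.72-fold. XBP1 and HERPUD1, also of this list, rose 1.76-fold and 1.7-fold, and ATF4 fell 1.41-fold. Known targets of ATF4 moved both ways: TRIB3 and CHAC1 fell 2.07-fold and 1.74-fold, ASNS fell 1.93-fold but was not called over all its probe sets (log2 change -0.34), and DDIT3, which encodes CHOP, was at least 2.57-fold higher. HERPUD1 and XBP1 were not called over all their probe sets (0.55 and 0.59).

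Markers of other cell types were mostly dim. Of 12 immune cell genes with a probe set, 10 were dim in both stages, PTPRC, CD14 and CD3E among them; CD163 was at least 2.02-fold higher. Of 12 skeletal muscle and fat genes, 10 were dim in both, MYOD1 and ADIPOQ included. In the trophoblast list, 9 of 16 genes with a probe set were dim in both stages, among them CGA, GCM1 and ERVW-1. Of 7 tested, 4 were higher and 1, KRT7, was lower. GATA3 had signals of 148 and 107 on the undifferentiated arrays and 1659.6 and 1778 on the embryoid body arrays, a 13.6-fold rise. The others that rose were TFAP2A, HAND1 and PGF, which other tissues also express. Germ cell genes gave 4 higher and 2 lower of 9, and DDX4 and NANOS3 were dim in both; DAZL fell 2.16-fold. Housekeeping genes gave 3 higher and 5 lower of 24 with a median of -0.08; ACTB and PPIA had log2 differences of -0.12 ± 0.11 and -0.08 ± 0.082 and were not called.

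The group means of the stage comparison at 20 mM ethanol rest on the other 4 arrays and share none with those at 0 mM. The estimate of spread, the choice of probe set and the filter on brightness came from all arrays of the series. They were common to both comparisons, so calls at both doses are not independent. The line mismatch also affects both comparisons in the same way. At 20 mM, 7923 genes were called, 56.3% of those tested. Of the genes called at 0 mM, 6203 were called in the same direction at 20 mM, which is 83.6% of the calls at 0 mM and 78.3% of those at 20 mM, and 16 were called in opposite directions. Across the 14072 genes, which are not independent replicates, the log2 changes at both doses correlated at r = 0.911 (Spearman's rho 0.868). LUM changed by 6.89 at 20 mM against 6.08 at 0 mM, AFP by 5.60 against 5.22, PAX6 by 3.60 against 3.69, NANOG by -1.16 against -0.81 and MT1X by -2.51 against -2.47. SOX2, not called at 0 mM, was lower at 20 mM by -0.48 (adjusted p = 0.00621). The difference between the stage effects at both doses was itself tested for every gene with limma. Of the 14072 genes, 1828 had an unadjusted p under 0.05, a larger share than the 0.05 expected if no gene differed. After adjustment none passed (smallest adjusted p = 0.122), and up to 31 were called under the other settings tried. The stage difference is therefore not shown to depend on the dose for any single gene, SOX2 included. With 2 arrays per group, the absence of calls does not show equal stage effects at both doses.

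**Figure D5:**
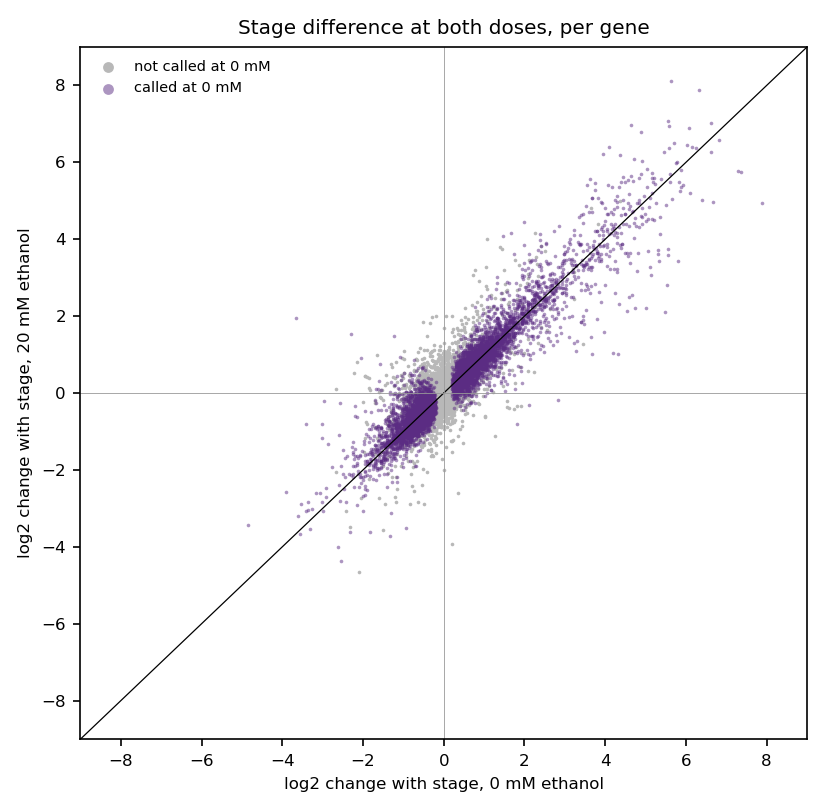
Log2 change with stage of each tested gene at 0 mM (horizontal axis) and 20 mM ethanol (vertical axis), each from 4 arrays, with the line of equality; purple points are genes called at 0 mM. Most points follow the line (r = 0.911 across genes), and 16 genes were called in opposite directions.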

How the data were processed

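Total RNA was measured on Affymetrix arrays with 54675 probe sets. The values the authors deposited are log10 signals given to 2 decimals. Their shared trimmed mean (2% trimmed at each end) is that of globally scaled signals, although the submitters' processing notes name RMA, with no version. They were converted to log2 with no further normalisation, where the design had assumed log2 values. A platform annotation named 1 gene for 41097 probe sets, several for 1801 and none for 11777; symbols followed RefSeq (GRCh38.p14). Each gene was read from its brightest probe set over 8 arrays and tested if at least 2 of 8 arrays exceeded their median. A gene bright in 1 group alone can pass this filter.

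Means of 4 groups were fitted to all 8 arrays with limma 3.58.1 in R 4.3.3 (lmFit, eBayes; 4 residual and 1.81 prior degrees of freedom), with Benjamini-Hochberg adjustment over 14072 genes, after a test on simulated data. Only 2 arrays per group limit the precision. Replicate letters did not pair arrays: deviations of like-lettered arrays correlated at -0.026 to 0.049. The 41 gene lists, the members and the motifs were chosen with earlier results of these data known. Named genes are the 12 largest changes per direction, measured in both groups or bounded by the array median, with non-overlapping arrays. In addition, each list gives its first 4 members, up to 4 called per direction by smallest p, and uncalled members. A further 47 called genes were chosen after their values were seen. KRT7 and CDX4 are also named but are not in the counts of named genes below. Genes that check the line or are often absent by genotype are not named. Alternatives changed the filter, the probe set, the scaling, the variance model, the arrays and the pseudocount.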

Additional observations from a re-analysis of the deposited data

How the results depend on the processing

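With 2 arrays per group, p-values rest on few degrees of freedom, and stage and cell line cannot be told apart under any setting. Median centring gave 2506 higher and 5814 lower genes. A test for changes beyond 2-fold (limma's treat) gave 681 and 127, and 926 at 20 mM. A replicate block gave 3837 and 3373. Leaving out each array in turn gave 2901 to 4106 higher and 2405 to 3564 lower genes, with a lone array assumed to vary like the others. The difference between the doses, with 0 genes called, gave 0 to 10 when an array was left out (10 without replicate B of undifferentiated cells at 20 mM, 5 without replicate A at 0 mM). It gave 13 with a filter at the 75th percentile, 31 when the variance was allowed an intensity trend and robust estimation, and 10 with dim signals set to the array median, chosen after seeing the data. Of 251 called genes named, 27 lost their call in at least 1 leave-one-out fit and 36 under at least 1 other alternative, treat aside. The genes lost without 1 array were ALDH2, APOE, ATF4, BMP4, C1orf94, CER1, CHRDL1, CUBN, DAZL, DLX5, FOXD3, FOXH1, GRB10, HOXB2, JARID2, KDR, LIN28A, MYMX, NDRG1, PCOLCE, RPS9, SHH, SLC2A1, SLC2A3, SOX3, TET1 and ZIC2; the most were lost without replicate A of embryoid bodies at 0 mM (22), and their highest adjusted p was 0.193, for BMP4. The mean of all probe sets also ended the calls of ASNS, AXIN2, BMP4, DLL1, EZH1, FGFR3, GRB10, HELLS, HERPUD1, JARID2, PFKP, PHLDA2, PLA2G4C, RBPJ, RDH10, RPS9, SOX10, SOX3, TWIST2 and XBP1, the most variable probe set those of BMP4, BMP7, JARID2 and SMAD3, and leaving out _x_at and _s_at sets those of APOA1, GRIA4 and JARID2. Fitting only the 4 arrays ended those of BMP4, CUBN, JARID2, NDRG1 and SHH, no filter those of BMP4, RPS9, SHH and TET1, median centring those of ALDH2, APOE, CER1, SHH, SLC2A1 and SLC2A3, quantile normalisation those of ATF4, BMP4, CER1, GRB10, RPS9, SHH and TET1 and cyclic loess those of ATF4, BMP4, LIN28A, SHH, TET1 and ZIC2. Another choice of probe set turned some named genes. The mean of all probe sets gave log2 changes of -0.35 for SOX2 and 0.11 for TET1; the most variable probe set gave -0.48 for DNMT3A, 2.04 for PECAM1, 0.28 for RBPJ and 0.61 for TET1; leaving out the _x_at and _s_at kinds gave 0.28 for RBPJ. Median centring gave -0.25 for CDH1, -0.25 for DNMT3A, -0.25 for DNMT3B and -0.28 for SOX2, and cyclic loess 0.00 for RPS9. Some other genes given as not called were called under other settings. EPCAM, MT1M and MT3 stayed uncalled in 17 of 22 alternatives each, and OTX2 and PCNA in 19 of 23. The cause of these differences was not tested.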

Other observations

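Some key genes of the pluripotent state share their probe sets with near-identical copies, so their signals belong to no single gene. The set that names POU5F1 (OCT4) together with POU5F1B and 2 other copies had signals of 15136 and 14791 in undifferentiated cells at 0 mM and 6918 on both arrays of embryoid bodies. At 20 mM it was at 14791 on both undifferentiated arrays and at 5129 and 5012 in embryoid bodies. The set of CRIPTO, a coreceptor for nodal, and its copy CRIPTO3 went from 22387 and 19055 to 15136 and 12882 at 0 mM. The duplicates did not overlap between the stages in either case, and no test was run on these sets.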
